A study of Rattus norvegicus with 36 samples.

Results

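The genes described here are the glutathione transferases, the glutathione peroxidases and the genes that make, recycle and break down glutathione in rat liver. They were taken by name from a list of 34 genes: 21 transferases of the alpha, mu, pi, theta, kappa, zeta, omega, sigma and microsomal classes, 3 synthesis genes, 4 recycling and breakdown genes, 4 peroxidases and 2 glutaredoxins. Of the 34 genes, 33 were measured by a probe set annotated to that gene alone, of 14217 genes named this way on the array. The remaining gene, Gsta2, shares its only probe set with other alpha class genes in the annotation, and this shared alpha probe set is given separately and not counted.

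Glutathione is a tripeptide of glutamate, cysteine and glycine that hepatocytes hold in large amounts. Transferases join it to electrophilic chemicals and their reactive metabolites, and the conjugates are exported and turned into mercapturates. Peroxidases spend it to reduce hydroperoxides, and glutathione reductase restores the reduced form. In liver the transcription factor NRF2 and the xenobiotic receptors CAR and PXR are known regulators of several of these genes.

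The samples were livers of male Sprague Dawley rats, 7 weeks old at the start, that received HCDBCO by gavage in corn oil at 5 ml/kg on 5 consecutive days. HCDBCO is a flame retardant that carries chlorine and bromine. There were 6 groups of 6 samples: vehicle, that is corn oil with no HCDBCO, and daily doses of 541 and 54.1 mg/kg, then 5.41 and 0.54 mg/kg, and lowest 0.05 mg/kg. Liver was taken 1 day after the last dose, and whole-liver RNA was hybridised to Affymetrix expression arrays, 1 per sample. By the labels the groups differed only in dose. The labels do not say that each replicate number is a separate animal, so the p-values cover only the spread among the samples at hand. The question put by the design is how each dose differs from vehicle.

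Values are log2 intensities as deposited, and a difference of 1 is a doubling. A log2 value depends on the probe set as well as on the transcript, so levels are compared between samples and not between genes. A gene is called where limma's Benjamini-Hochberg adjusted p, over all 31042 probe sets tested, was below 0.05 (the false discovery rate, FDR). The lowest correlation between any pair of arrays was 0.991. The array of 54.1 mg/kg replicate 5 stood apart, with a lower quartile of 3.79 and an upper quartile of 6.94 where the other 35 lay at 3.62 to 3.72 and 7.03 to 7.13. Without it the same 2 genes, Gsta3 and Mgst2, were called at 541 mg/kg, a comparison it enters only through the spread shared by all groups. At 54.1 mg/kg no gene was called with or without it. Within its group it was the lowest sample in 10 of the 33 genes and the highest in 4. The mean of 7 measured hepatocyte markers was 13.58 to 13.71 in vehicle samples and 13.53 to 13.62 at 541 mg/kg, and no hepatocyte marker passed the FDR. In whole liver, fewer cells of a type and less RNA per cell cannot be told apart.

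Promoter sequences are shown for 3 of the genes that rose over the dose order and, beside them, for the pi class gene Gstp1 and for Gclm of glutathione synthesis. Mgst2 and Gstt1, which also rose over the dose order, had no promoter entry and were not searched. Each window shown is the 250 bases before an annotated transcription start, from RefSeq on the rat assembly GRCr8, written 5′ to 3′ on the strand of the gene. Capitals mark TGACNNNGC, the core of the antioxidant response element that NRF2 binds with small MAF proteins, searched on both strands. The windows are Gsta3 first start, chr9:31154739-31154988 (plus strand); Gsta3 second start, chr9:31166793-31167042 (plus); Gsta4, chr8:87947015-87947264 (plus); Gstt3, chr20:12874368-12874617 (plus); Gstp1, chr1:210769706-210769955 (minus); and Gclm, chr2:213031885-213032134 (plus).
Gsta3 first start: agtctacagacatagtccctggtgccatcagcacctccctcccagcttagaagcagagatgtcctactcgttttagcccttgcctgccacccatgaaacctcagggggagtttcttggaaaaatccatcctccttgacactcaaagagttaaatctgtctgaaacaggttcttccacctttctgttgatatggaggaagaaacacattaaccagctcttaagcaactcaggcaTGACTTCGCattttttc
Gsta3 second start: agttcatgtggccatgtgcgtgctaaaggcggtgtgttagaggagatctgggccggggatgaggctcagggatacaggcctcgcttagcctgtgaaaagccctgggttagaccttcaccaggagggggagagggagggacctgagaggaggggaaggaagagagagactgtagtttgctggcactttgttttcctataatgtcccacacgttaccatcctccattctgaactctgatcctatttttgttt
Gsta4: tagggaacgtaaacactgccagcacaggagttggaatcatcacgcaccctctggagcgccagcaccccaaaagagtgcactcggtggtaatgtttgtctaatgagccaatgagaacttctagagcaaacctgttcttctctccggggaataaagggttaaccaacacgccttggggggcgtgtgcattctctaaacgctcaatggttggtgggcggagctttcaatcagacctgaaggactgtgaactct
Gstt3: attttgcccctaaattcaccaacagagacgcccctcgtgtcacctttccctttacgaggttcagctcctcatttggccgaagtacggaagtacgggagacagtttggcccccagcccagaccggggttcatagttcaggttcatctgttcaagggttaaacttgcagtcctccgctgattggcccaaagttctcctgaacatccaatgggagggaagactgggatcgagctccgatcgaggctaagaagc
Gstp1: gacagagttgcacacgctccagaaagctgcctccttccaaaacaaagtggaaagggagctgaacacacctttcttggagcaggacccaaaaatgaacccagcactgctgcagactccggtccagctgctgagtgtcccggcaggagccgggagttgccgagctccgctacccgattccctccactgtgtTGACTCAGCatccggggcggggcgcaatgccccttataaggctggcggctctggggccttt
Gclm: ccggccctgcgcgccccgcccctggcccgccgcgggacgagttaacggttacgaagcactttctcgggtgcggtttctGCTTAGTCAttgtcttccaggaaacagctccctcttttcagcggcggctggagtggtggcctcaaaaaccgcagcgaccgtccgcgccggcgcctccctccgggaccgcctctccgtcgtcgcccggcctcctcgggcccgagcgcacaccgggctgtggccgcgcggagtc

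The core stood 17 to 9 bases before the first Gsta3 start, as TGACTTCGC. The windows of the second Gsta3 start, of Gsta4 and of Gstt3 held no match to the core. In Gstp1 it read TGACTCAGC, 61 to 53 bases before the start. In Gclm it lay on the opposite strand, 172 to 164 bases before the start, and reads GCTTAGTCA in the line above. Promoter windows were at hand for 28 of the 34 listed genes, as 35 windows. Of these, 7 held the core, in Gclm, Gpx2, Gsta3, Gstm5, Gstm7, Gstp1 and Gstz1, against 10.1% of all 33469 windows of this length. At 541 mg/kg Gsta3, Gclm, Gpx2 and Gstm7 had higher means than vehicle, while Gstz1, Gstp1 and Gstm5 had lower ones (for Gpx2 at values near background). Only the difference of Gsta3 among these 7 passed the FDR. Besides the core, the short motifs AGGTCA and AGTTCA were searched on both strands and are not marked. AGGTCA stood in 3 of the 35 windows (14.1% of all windows), in Gpx2, Gpx4 and Gstm1. AGTTCA stood in 6 (12.2%), in Gsta2, Gsta3, Gsta4, Gstm5, Gstt3 and Gstz1. A match is a description of the letters and not a measured binding site.

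At 541 mg/kg the genes lay mostly above vehicle, and the size of the difference varied by class. Of the 33 genes, 27 had a higher mean than vehicle, against 53.3% of all probe sets. The median difference over the 33 was 0.125 log2 units, against 0.00761 over all probe sets tested. Gsta3 and Mgst2 rose past the FDR and no gene fell, where 0.155% of all probe sets were called in either direction and 0.116% were called higher. At an unadjusted p below 0.05, 14 genes were higher (4.49% of all probe sets) and Gstz1 was lower (4.58%). Each 541 mg/kg sample had 24 to 27 of the 33 genes above the vehicle mean, each 54.1 mg/kg sample 18 to 26, and each vehicle sample, which is part of that mean, 12 to 21.

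**Figure D1:**
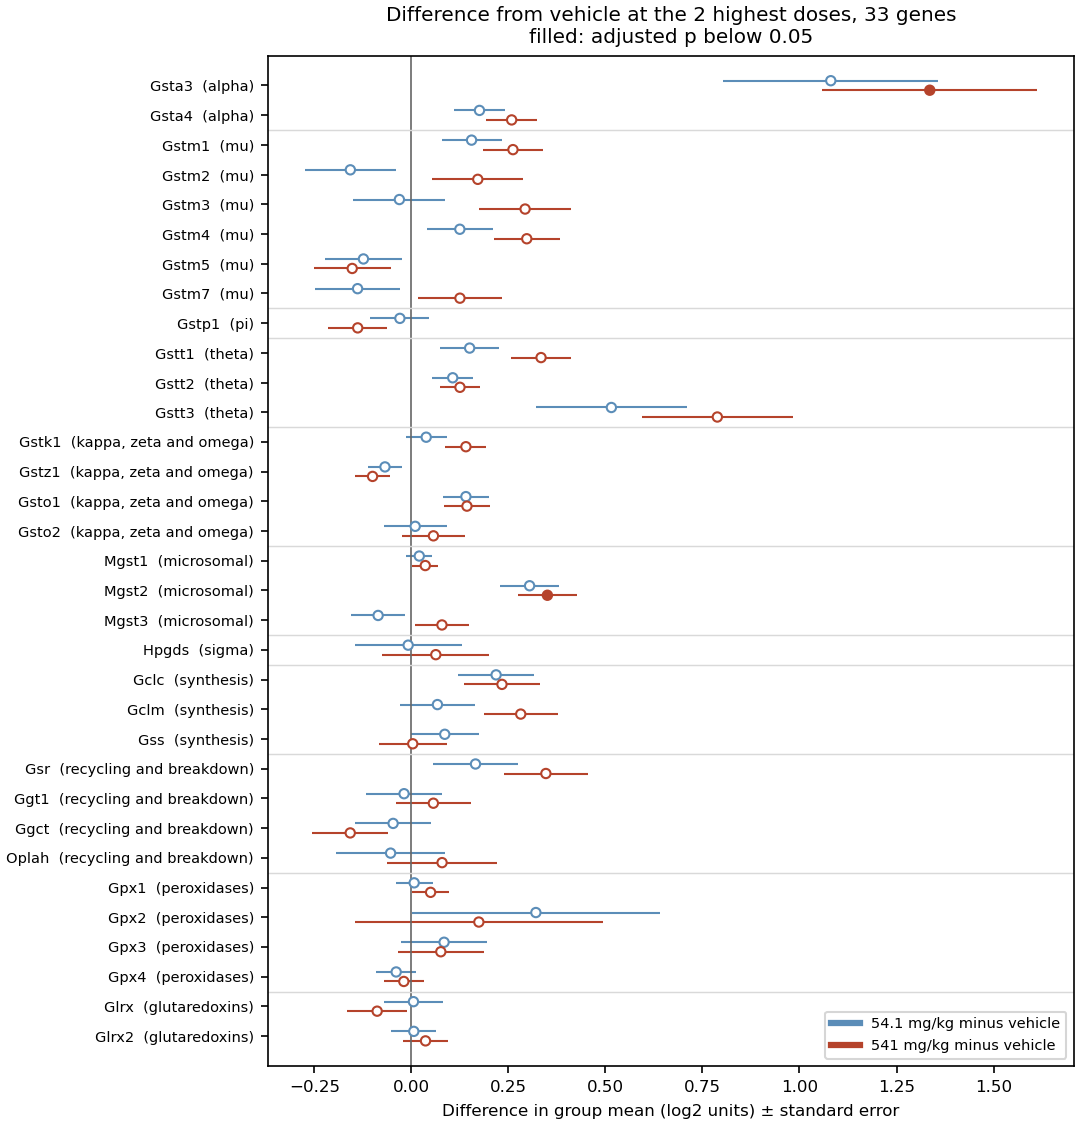
Differences from vehicle in log2 units (horizontal axis) for the 33 genes, grouped by class, at 54.1 mg/kg (blue) and 541 mg/kg (red), with limma's standard error as bars. Filled points passed the FDR. Gsta3 stands farthest to the right at both doses, and the peroxidases and glutaredoxins lie near 0 at 541 mg/kg, Gpx2 with a wide bar.

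By class, the median difference at 541 mg/kg was 0.797 over 2 alpha genes, 0.334 over 3 theta genes, 0.216 over 6 mu genes and 0.0786 over 3 microsomal genes, and -0.139 for the single pi gene. The medians at 54.1 mg/kg were 0.628, 0.15, -0.0774, 0.0202 and -0.03 in the same order. Alpha and theta lay highest at both doses. The alpha median is the midpoint of Gsta3 and Gsta4, and at 541 mg/kg Gsta4 alone lay below the theta median. The Gsta4 difference there ran from 0.233 to 0.304 without single samples. The mu median at 54.1 mg/kg rested on replicate 2 of that group, and without it the mu median was 0.0133 and the pi difference 0.013. The 3 synthesis genes had a median of 0.233 at 541 mg/kg, the 4 recycling and breakdown genes 0.0677 and the 4 peroxidases 0.0625. Without single samples of the 2 groups, the medians at 541 mg/kg ran from 0.736 to 0.9 for alpha, 0.308 to 0.379 for theta, 0.185 to 0.241 for mu and 0.175 to 0.282 for synthesis. The small medians moved by more, from 0.0303 (without vehicle replicate 4) to 0.114 for microsomal genes, from -0.00212 (without vehicle replicate 4) to 0.12 (without vehicle replicate 2) for recycling and breakdown, and up to 0.103 (without 541 mg/kg replicate 6) for peroxidases. These class values are counts and medians of a few genes each, and classes were not tested against each other.

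The calls at 541 mg/kg depended on single samples. Without vehicle replicate 2 or 4, or 541 mg/kg replicate 1, 3, 4 or 6, no gene of the 33 was called. Without vehicle replicate 1 only Gsta3 was called, and without vehicle replicate 6 only Mgst2. Without vehicle replicate 3 the count rose to 4, with Gstt1 and Gstt3 added. The differences themselves moved little, from 1.23 to 1.5 for Gsta3 and from 0.30 to 0.38 for Mgst2.

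The alpha class held the largest difference. Gsta3, an alpha class transferase, had vehicle values from 7.27 to 8.20 with a median of 7.60. At 54.1 mg/kg they ran from 8.35 to 9.02 (median 8.76), and at 541 mg/kg from 8.16 to 9.50 (median 9.06). The 54.1 mg/kg samples all lay above the highest vehicle sample, while at 541 mg/kg replicate 2, at 8.16, fell just below it. The mean was 2.52-fold higher than vehicle at 541 mg/kg (difference 1.34 ± 0.28, SE, n = 6 per group, adjusted p = 0.0263). The 54.1 mg/kg mean was 2.11-fold higher (1.08 ± 0.28), with all 6 samples above the vehicle mean, and did not pass the FDR (adjusted p = 0.133).

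At the lower doses Gsta3 varied widely from sample to sample. The SD was 0.585 at 0.05 mg/kg, 0.601 at 0.54 mg/kg and 0.686 at 5.41 mg/kg, against 0.343 in vehicle. Single samples reached 8.45, 8.84 and 8.87 at these doses, above every vehicle sample, while others stayed at 7.10, 7.22 and 7.08, below every vehicle sample. The group means went from 7.62 in vehicle through 7.61, 8.11 and 7.74 to 8.70 and 8.96, so the order of the means did not follow dose at 5.41 mg/kg.

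Gsta4, which conjugates hydroxynonenal and other aldehydes from lipid peroxidation, was steady in vehicle, from 10.94 to 11.09 with a median of 11.04. At 541 mg/kg it ran from 11.06 to 11.42 (median 11.34), and replicate 2, at 11.06, was the sample that fell within the vehicle range. The difference was 0.26 ± 0.07 (adjusted p = 0.102). The shared alpha probe set had vehicle values of 12.72 to 13.09 (median 12.80) and 541 mg/kg values of 12.89 to 13.51 (median 13.39). It was 0.48 ± 0.13 higher at 541 mg/kg (adjusted p = 0.145), with all 6 samples above the vehicle mean and the ranges overlapping. Replicate 2 was the lowest of the 541 mg/kg group in Gsta3, Gsta4 and this probe set. Whether the Gsta3 and Gsta4 probe sets also bind transcripts of other alpha genes was not tested.

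The theta class lay above vehicle in all 3 genes at both high doses, with median differences of 0.15 at 54.1 mg/kg and 0.334 at 541 mg/kg. Gstt1, which acts on halogenated methanes and other small electrophiles, ran from 9.21 to 9.56 in vehicle (median 9.33), from 9.37 to 9.59 at 54.1 mg/kg (median 9.47) and from 9.60 to 9.76 at 541 mg/kg (median 9.66). Every 541 mg/kg sample exceeded every vehicle and every 54.1 mg/kg sample. At the lower doses the highest samples were 9.66 at 0.05 mg/kg, 9.55 at 0.54 mg/kg and 9.64 at 5.41 mg/kg. Those at 0.05 and 5.41 mg/kg lay above the lowest 541 mg/kg sample. The difference from vehicle was 0.33 ± 0.08 (adjusted p = 0.0536). Gstt1 was called in 5 of 10 other settings of the analysis, with adjusted p from 0.0175 to 0.103 over the 10, so its side of the threshold depended on the setting. Gstt1 was the only gene of the 33 whose 541 mg/kg samples all lay above the 54.1 mg/kg samples, as in 0.0870% of all probe sets.

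Gstt3, another theta transferase, had vehicle values of 9.26 to 10.41 (median 9.52) and 541 mg/kg values of 10.00 to 10.90 (median 10.37). Vehicle replicate 3, at 10.41, lay above 3 of the 541 mg/kg samples, and the ranges overlapped. The mean was 1.73-fold higher (0.79 ± 0.19, adjusted p = 0.0931), with 6 of 6 samples above the vehicle mean. Gstt2 ran from 10.06 to 10.33 in vehicle (median 10.26) and from 10.25 to 10.46 at 541 mg/kg (median 10.32), a difference of 0.13 (adjusted p = 0.433). A second, dimmer Gstt2 probe set had a difference of -0.09, so the sign for Gstt2 depended on the probe set.

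The microsomal transferases are membrane proteins of a separate family. Mgst2, which can also make a leukotriene, ran from 10.91 to 11.23 in vehicle (median 11.08), from 11.29 to 11.55 at 54.1 mg/kg (median 11.38) and from 11.34 to 11.68 at 541 mg/kg (median 11.40). All 12 samples of the 2 highest doses lay above every vehicle sample. Single samples at 0.05, 0.54 and 5.41 mg/kg reached 11.38, 11.40 and 11.36, within the ranges of the 2 highest doses. The mean was 1.27-fold higher at 541 mg/kg (0.35 ± 0.08, adjusted p = 0.0343) and 1.23-fold higher at 54.1 mg/kg (0.30 ± 0.08, adjusted p = 0.111). From 54.1 to 541 mg/kg it differed by only 0.05.

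Gstt1 and Mgst2 were the genes with no overlap above vehicle at 541 mg/kg, as in 0.393% of all probe sets. At 54.1 mg/kg these were Gsta3 and Mgst2 (0.226%). Mgst1, an abundant transferase of the endoplasmic reticulum and the outer mitochondrial membrane, held between 13.84 and 13.96 in all 36 samples. Its vehicle median was 13.88 and its 541 mg/kg median 13.92, a difference of 0.04 ± 0.0335 (adjusted p = 0.804), at the bright end of a scale that reached 14.7 over the whole table. Mgst3 differed by 0.08 at 541 mg/kg and -0.09 at 54.1 mg/kg.

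**Figure D2:**
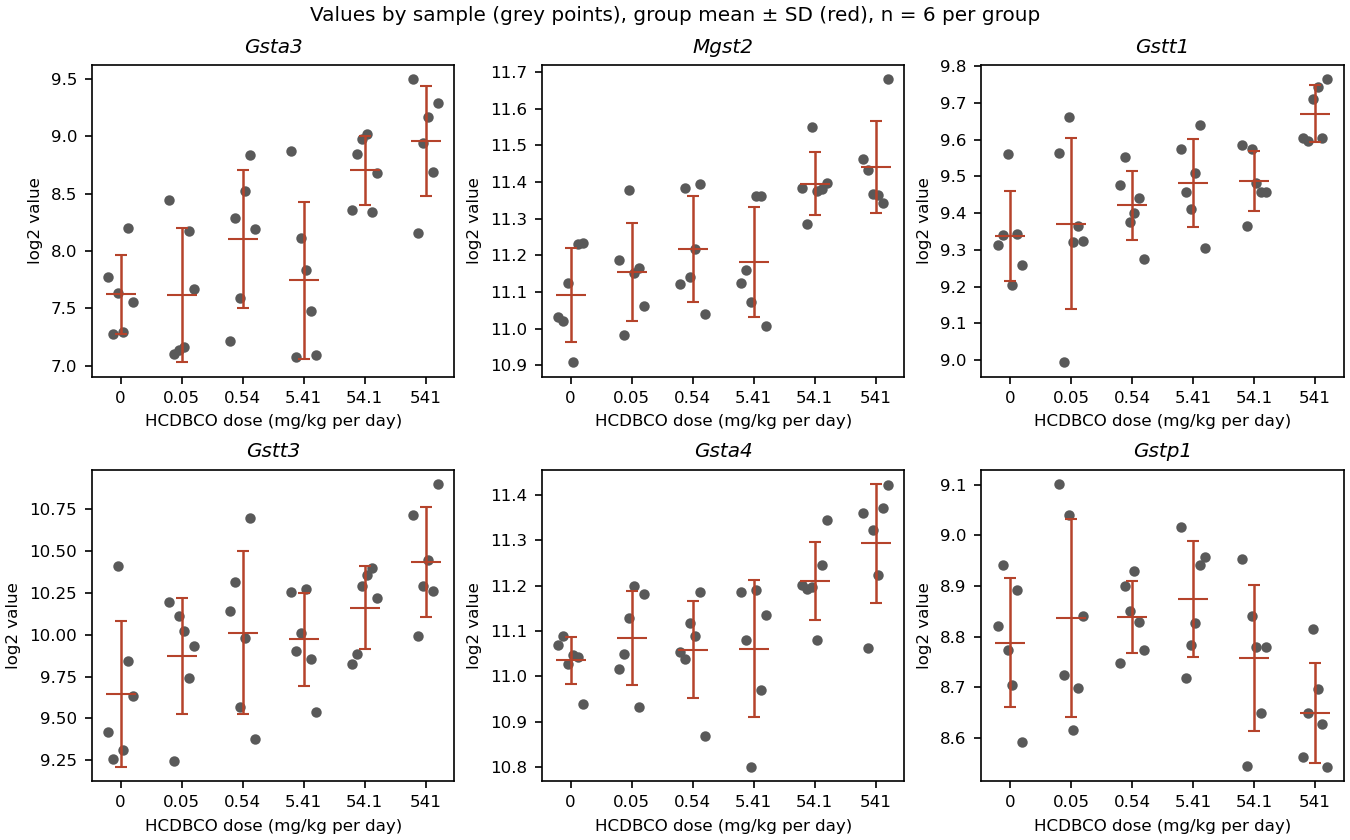
Log2 values of Gsta3, Mgst2, Gstt1, Gstt3, Gsta4 and Gstp1 (vertical axis, a separate scale in each panel) against the HCDBCO dose in mg/kg per day, with 1 point per sample and the group mean ± SD (n = 6). The 5 transferases that rose over the dose order are highest at 541 mg/kg, and Gstp1 is lowest there.

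Of the mu class, 5 of 6 genes had higher means than vehicle at 541 mg/kg, and none passed the FDR. Gstm4 ran from 8.42 to 8.94 in vehicle (median 8.65) and from 8.75 to 9.26 at 541 mg/kg (median 8.94), a difference of 0.30 (adjusted p = 0.180). Gstm1, a mu transferase that conjugates epoxides and aromatic electrophiles, ran from 12.86 to 13.17 in vehicle (median 12.93) and from 13.11 to 13.45 at 541 mg/kg (median 13.21), a difference of 0.26 (adjusted p = 0.190). In both, every 541 mg/kg sample lay above the vehicle mean while the ranges overlapped. Gstm3, Gstm2 and Gstm7 were 0.29, 0.17 and 0.12 higher, and Gstm5 differed by -0.15 (adjusted p = 0.686).

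At 54.1 mg/kg 2 of 6 mu genes lay above vehicle, with a median of -0.0774. This turned on replicate 2, the lowest sample of its group in 5 of the 6 genes (all but Gstm7), and without it 3 of 6 genes lay above vehicle with a median of 0.0133. Gstm2 differed by -0.16, Gstm7 by -0.14 and Gstm3 by -0.03, and without replicate 2 by -0.04, -0.13 and 0.06. Gstm2 values at 54.1 mg/kg ran from 11.30 to 12.26 (median 12.01) and at 541 mg/kg from 12.10 to 12.43 (median 12.19), with overlap, and the vehicle samples lay between 11.94 and 12.19. Gstm2, Gstm3 and Gstm7 were 0.33, 0.32 and 0.26 higher at 541 than at 54.1 mg/kg, with unadjusted p = 0.00792, 0.00982 and 0.0210, and the adjusted p was 0.968 or more for each. Without 54.1 mg/kg replicate 2 these differences were 0.21, 0.23 and 0.26, with unadjusted p = 0.0535, 0.0525 and 0.0321 and adjusted p = 0.999. The mu genes are close paralogs, and whether their probe sets bind each other's transcripts was not tested.

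Gstp1, the pi class transferase, is scarce in normal rat hepatocytes and a known marker of preneoplastic liver foci. It ran from 8.59 to 8.94 in vehicle (median 8.80) and from 8.54 to 8.81 at 541 mg/kg (median 8.64). The ranges overlapped, 5 of 6 samples lay below the vehicle mean, and the difference was -0.14 ± 0.08 (adjusted p = 0.601). The 54.1 mg/kg difference was -0.03.

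The kappa, zeta and omega transferases differed by small amounts. Gstz1, which isomerises maleylacetoacetate in tyrosine breakdown, ran from 11.91 to 12.15 in vehicle (median 12.00) and from 11.87 to 11.97 at 541 mg/kg (median 11.93). All 6 samples lay below the vehicle mean, with overlap, for a difference of -0.10 (adjusted p = 0.471). Gsto1, an omega enzyme that reduces dehydroascorbate, was 0.14 higher at both 54.1 and 541 mg/kg (adjusted p = 0.453 and 0.429), from a vehicle range of 11.01 to 11.21 (median 11.15) to 11.13 to 11.39 (median 11.30) at 541 mg/kg. Gstk1, of mitochondria and peroxisomes, was 0.14 higher (adjusted p = 0.356) and Gsto2 0.06 higher. Hpgds, the sigma class prostaglandin D synthase, ran from 6.38 to 6.92 in vehicle (median 6.70) and from 6.37 to 6.89 at 541 mg/kg (median 6.75), and differed by 0.06.

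Glutathione synthesis begins with glutamate-cysteine ligase, whose catalytic subunit is Gclc and whose modifier is Gclm. Gclm ran from 10.40 to 10.82 in vehicle (median 10.54), from 10.47 to 10.95 at 54.1 mg/kg (median 10.58) and from 10.63 to 11.11 at 541 mg/kg (median 10.85). Its groups overlapped at both doses, and the difference from vehicle was 0.28 ± 0.10 at 541 mg/kg (adjusted p = 0.281) and 0.07 at 54.1 mg/kg. Without 54.1 mg/kg replicate 5, the highest of its group at 10.95, the Gclm difference at 54.1 mg/kg was 0.0035. Gclc was higher by nearly the same amount at both doses, 0.22 at 54.1 mg/kg (adjusted p = 0.484) and 0.23 at 541 mg/kg (adjusted p = 0.431). A second Gclc probe set gave 0.08 and 0.15. Gss, glutathione synthetase, which adds the glycine, differed by 0.00 ± 0.09 at 541 mg/kg.

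Gsr, glutathione reductase, had the largest difference outside the transferases at 541 mg/kg. It ran from 8.57 to 9.08 in vehicle (median 8.90) and from 8.80 to 9.51 at 541 mg/kg (median 9.12). Replicates 3 and 6, at 9.51 and 9.46, were the highest, the ranges overlapped, and 5 of 6 samples exceeded the vehicle mean. The difference was 0.35 ± 0.11 (adjusted p = 0.223). Of the breakdown genes, Ggt1, which cleaves glutathione outside the cell, was 0.06 higher, and Oplah, which hydrolyses oxoproline, 0.08 higher. Ggct, which releases oxoproline from gamma-glutamyl peptides, ran from 9.61 to 10.34 in vehicle (median 9.90) and from 9.71 to 9.98 at 541 mg/kg (median 9.75), a difference of -0.16 (adjusted p = 0.665).

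Read from its brightest probe set, none of the 4 peroxidases or 2 glutaredoxins had an unadjusted p below 0.05 at 54.1 or 541 mg/kg. Gpx1, the main cytosolic peroxidase, ran from 13.37 to 13.56 in vehicle (median 13.42) and from 13.47 to 13.51 at 541 mg/kg (median 13.49), a difference of 0.05 ± 0.05. Gpx3, the secreted form, differed by 0.08 and Gpx4, which reduces phospholipid hydroperoxides, by -0.02. Glrx, a cytosolic glutaredoxin, ran from 10.37 to 10.65 in vehicle (median 10.49) and from 10.14 to 10.67 at 541 mg/kg (median 10.44), a difference of -0.09. A second, dimmer Glrx probe set gave -0.22 (unadjusted p = 0.00729, adjusted p = 0.311). For the mitochondrial Glrx2 the 2 probe sets differed in sign, 0.04 for the brighter and -0.21 for the dimmer (unadjusted p = 0.0108, adjusted p = 0.351). The dimmer Glrx2 probe set also gave -0.22 at 54.1 mg/kg (unadjusted p = 0.00621, adjusted p = 0.331).

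Gpx2, a peroxidase of digestive and other epithelia, showed the most extreme single value of the 33 genes. In 0.54 mg/kg replicate 4 it was 7.28, where the other 35 samples lay between 3.46 and 4.31 with a median of 3.85. Those 35 values lie under the log2 value of 5 used here as the limit for dim probe sets and near the lower quartile of their arrays, so they give no level above background and no fold is given. The sample lay 2.97 above the next one. No other of the 33 genes was highest in this sample. All 6 measured bile duct markers were also higher in this sample than in any other. Krt19, a keratin of bile duct cells, was 8.37 against at most 6.27, Spp1, osteopontin, 7.73 against at most 5.99, and Krt7 5.36 against at most 4.24. Epcam, Cftr and Cldn4 exceeded the next sample by 0.17, 0.11 and 0.14. Cftr and Cldn4, at 3.42 and 3.59 in this sample, lay under the log2 value of 5 in every sample. Their lead is thus within the range of background and gives no level.

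The neutrophil markers S100a8 and S100a9, 2 of 4 measured, were highest there too, as were 1 of 4 pancreas markers (Prss1) and 1 of 4 adipose markers (Adipoq). Of 4 intestinal markers (Fabp2, Vil1, Cdx2 and Muc2) and 7 hepatocyte markers none was. Across the array, 23 probe sets of this sample lay more than 1 log2 unit above every other sample, against 0 to 1 in each of the others. This sample was singled out after its values were seen, and the part of the bile duct signal in the Gpx2 value was not tested.

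The Gpx2 comparison at 0.54 mg/kg turned on that sample. Gpx2 was 0.66 ± 0.32 higher than vehicle (unadjusted p = 0.0472, adjusted p = 0.999), and 0.07 without it. The same sample also widened the error of Gpx2 at every dose, since all groups share 1 estimate of the spread. At 541 mg/kg Gpx2 ran from 3.77 to 4.09 (median 3.85) and in vehicle from 3.46 to 3.83 (median 3.75), all in the range of background, and no change is read from them (adjusted p = 0.918, and 0.501 without the sample).

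**Figure D3:**
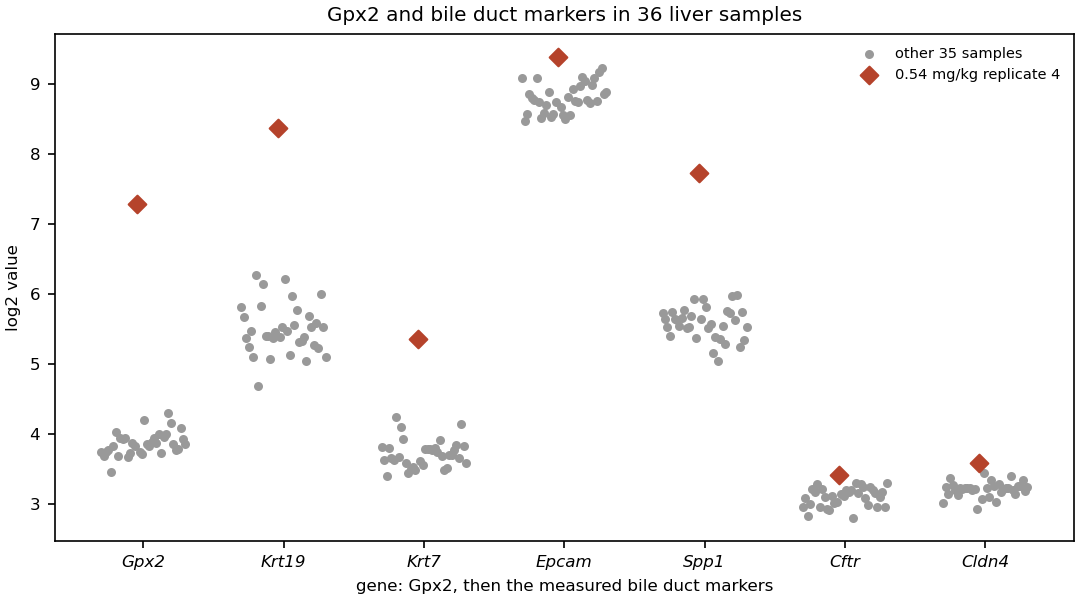
Log2 values (vertical axis) of Gpx2 and of the 6 measured bile duct markers in the 36 samples, with 0.54 mg/kg replicate 4 as a red diamond and the other 35 samples as grey points spread sideways for legibility. The diamond is the highest value for each of the 7 genes, by 2.97 log2 units for Gpx2. For Cftr and Cldn4 all points, the diamond included, lie under the log2 value of 5 used for dim probe sets.

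At 0.05, 0.54 and 5.41 mg/kg no gene of the 33 passed the FDR, and 0% of all probe sets did. At an unadjusted p below 0.05 there was no gene at 0.05 mg/kg (3.02% of all probe sets in either direction), Gpx2 at 0.54 mg/kg (4.18%) and Gstt2 at 5.41 mg/kg (4.83%). Gstt2 was 0.12 higher at 5.41 mg/kg, with values of 10.29 to 10.42 (median 10.33) against 10.06 to 10.33 in vehicle. Gstt3 lay above vehicle at each of these doses, by 0.23, 0.37 and 0.33, with standard errors of 0.19. Of the 33 genes, 23, 20 and 21 had higher means than vehicle at these doses, against 50.5%, 52.2% and 52.1% of all probe sets, with all 5 comparisons sharing the same 6 vehicle samples.

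At 54.1 mg/kg no gene of the 33 was called, where 0.0741% of all probe sets were. At an unadjusted p below 0.05, 7 genes were higher (4.52% of all probe sets), namely Gsta3, Gsta4, Gstt2, Gstt3, Gsto1, Mgst2 and Gclc, and none was lower (4.68%). Of the 33 genes, 21 had higher means than vehicle, against 54.1% of all probe sets, and the median difference was 0.0202, against 0.00962 over all probe sets. Directly compared, 541 and 54.1 mg/kg differed in no gene past the FDR (0.00322% of all probe sets). At an unadjusted p below 0.05, 6 genes were higher at 541 than at 54.1 mg/kg (2.35%) and none was lower. These were Gstm2, Gstm3, Gstm7, Gstt1, Mgst3 (0.16) and Gclm (0.21). For Gsta3 the step was 0.26, for Gstt3 0.27 and for Gclc 0.02.

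Over the dose order, with vehicle and the 5 doses scored 0 to 5, 5 genes rose past the FDR and none fell, where 0.341% of all probe sets rose. Gsta3 rose by 0.27 ± 0.05 log2 units per step (adjusted p = 0.00179) and Mgst2 by 0.07 ± 0.01 (adjusted p = 0.00366). Gstt1 rose by 0.06 ± 0.01 (adjusted p = 0.0201), Gsta4 by 0.05 ± 0.01 (adjusted p = 0.0312) and Gstt3 by 0.14 ± 0.03 (adjusted p = 0.0409). Gsta3, Mgst2 and Gstt1 were called whichever of the 36 samples was left out, Gsta4 in 30 of 36 such fits and Gstt3 in 22. The count of 5 fell to 3 without vehicle replicate 6, 541 mg/kg replicate 1 or 541 mg/kg replicate 6. Gsr, Gstm1 and Gstm4 had slopes of 0.07, 0.05 and 0.05 and adjusted p of 0.0725, 0.0728 and 0.0801. In a test of any difference among the 6 groups only Gsta3 passed (0.0999% of all probe sets). It was not called there without 54.1 mg/kg replicate 3 or 4 or 541 mg/kg replicate 1, 3, 4 or 6, and without 0.05 mg/kg replicate 3 Mgst2 was called as well.

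**Figure D4:**
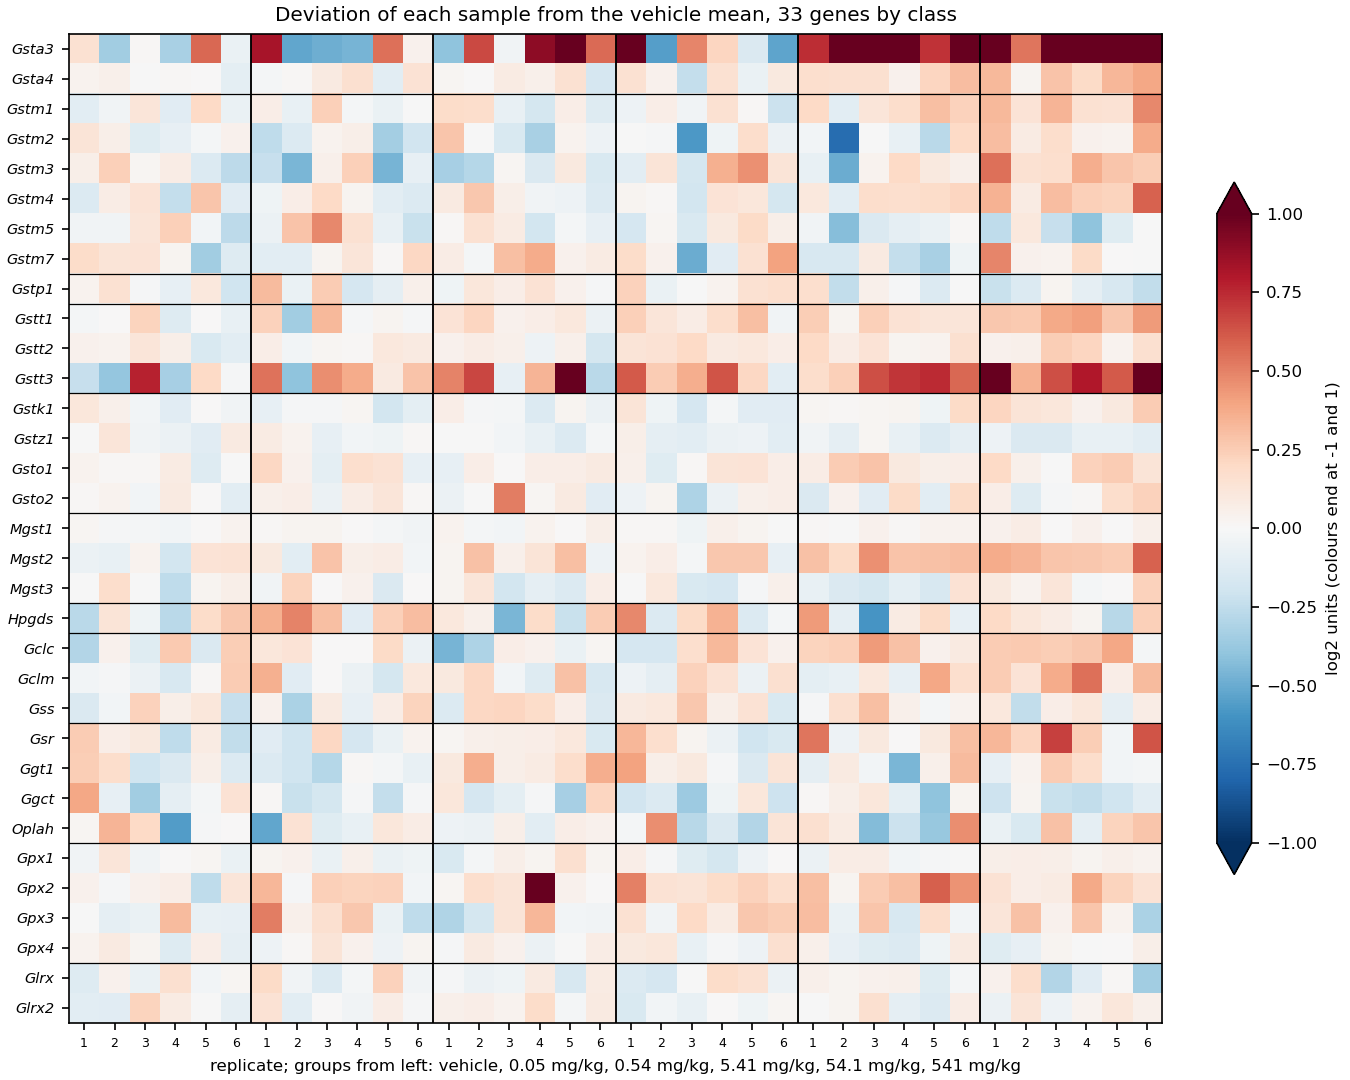
Deviation of each sample from the vehicle mean in log2 units (colour, red above and blue below, ending at -1 and 1) for the 33 genes in rows and the 36 samples in columns by group. Gsta3, Gstt3 and Mgst2 are red across the 54.1 and 541 mg/kg samples, and the darkest cell of the Gpx2 row is 0.54 mg/kg replicate 4.

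Neighbouring genes of the pathway were taken from separate lists. Of 31 measured genes for cysteine supply, mercapturate formation and conjugate export, 17 had higher means than vehicle at 541 mg/kg, none passed the FDR and the median difference was 0.00421. Abcc4, an exporter of organic anions, had the largest positive difference of these, 0.42 (adjusted p = 0.178), and Cth, which releases cysteine from cystathionine, differed by -0.18 (adjusted p = 0.188). Kyat1, a cysteine conjugate beta-lyase, rose by 0.32 at 54.1 mg/kg, past the FDR (adjusted p = 0.0194). It was 0.22 above vehicle at 541 mg/kg (adjusted p = 0.15). Of 25 measured genes for peroxide removal by thioredoxins and peroxiredoxins, 13 had higher means at 541 mg/kg and none passed. Srxn1, sulfiredoxin, was 0.23 higher (adjusted p = 0.433).

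Among 26 other measured NRF2 regulators and targets, 5 rose past the FDR at 541 mg/kg and none fell, where 0.116% of all probe sets rose and 0.0387% fell. Their median difference was 0.168, against 0.00761 over all probe sets. Among 17 other measured CAR and PXR regulators and targets, 8 rose and none fell, with a median of 0.433. Of the 8, 4 (Abcc3, Ephx1, Aldh1a1 and Akr7a3) stand on both lists and are also 4 of the 5 NRF2 genes that rose. The median of the 33 glutathione genes, 0.125, lay below both. These lists and the 33 genes were chosen with earlier results of these data known, so this order is a description and was not tested.

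Markers of other liver cells were measured beside these differences. The 5 measured sinusoidal endothelial markers were all lower than vehicle at 541 mg/kg, none past the FDR, and their mean level was 8.01 to 8.24 against 8.12 to 8.54 in vehicle. The mean of the 6 bile duct markers was 4.94 to 5.27 at 541 mg/kg against 4.81 to 5.07, and that of 5 macrophage markers 7.44 to 8.11 against 7.36 to 8.14. None of these markers was called at 541 mg/kg. Their part in the differences of the glutathione genes was not tested.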

How the data were processed

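RNA from 36 livers was measured on 1 array each. The authors deposited log2 intensities, normalized with RMA from the affy package per the submitters' processing notes, whose versions are not given in the sources used here. The table was used as deposited, with values from 1.94 to 14.7. Of 31099 probe sets, 57 controls were left out. Names came from the platform annotation: 20826 probe sets had 1 symbol, 436 several and 9780 none. A gene was read from its 1-symbol probe set with the highest mean over all samples.

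Limma 3.58.1 (R 4.3.3) fitted 6 group means over 36 arrays with lmFit and eBayes, with contrasts of each dose against vehicle, 541 against 54.1 mg/kg and a trend over dose order, and an F test. P-values were adjusted by Benjamini-Hochberg over 31042 probe sets. The fit was tested on simulated data. Genes given in full are those past the FDR and, per class, those with the largest difference at 541 mg/kg and the brightest in vehicle; others were singled out after their values were seen. Members and lists were chosen with earlier results of these data known. Alternatives are given in the closing section. Scan batches were not used here. The number of arrays limits the precision.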

Additional observations from a re-analysis of the deposited data

Results flagged for a closer look

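In each group of 6 samples, the highest or lowest value was set against its nearest neighbour by Dixon's test, for the 33 genes and the alpha probe set shared by several genes. Of 204 groups of values, 17 held a sample that stood apart, where chance gives about 1 in 20. All values are on the log2 scale.

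The farthest was Gpx2 in 0.54 mg/kg replicate 4, at 7.28. Gpx2 also had a low sample in vehicle, replicate 5 at 3.46, and a high sample at 5.41 mg/kg, replicate 1 at 4.21, both near background. Among genes that rose with dose, Mgst2 stood apart in 541 mg/kg replicate 6, at 11.7. Gclc was low in the same sample, at 9.85. The shared alpha probe set was high in vehicle replicate 2, at 13.1, and low in 541 mg/kg replicate 2, at 12.9.

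In the mu class, Gstm4 (8.56) and Gstm5 (6.60) were low in 54.1 mg/kg replicate 2, and Gstm2 was low in 5.41 mg/kg replicate 3, at 11.5. Gstk1 (11.6) and Mgst3 (11.8) were high in 54.1 mg/kg replicate 6. Gstz1 was high in 5.41 mg/kg replicate 1, at 12.1. Gsto2 was high in 0.54 mg/kg replicate 3, at 5.73, and low in 5.41 mg/kg replicate 3, at 4.91. Gsr was low in 0.54 mg/kg replicate 6, at 8.68, and Gpx3 was high in vehicle replicate 4, at 7.23.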

How the results depend on the processing

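Of 732 recomputed single-gene values other than those that leave out a sample, 702 kept their sign and their side of the FDR. Much of this was fixed in advance. Only 6 of the 33 genes had several probe sets, so another choice of probe set could not move the differences of the rest. Only Gsta3 and Mgst2 at 541 mg/kg and the 5 trend genes were called in the main fit, so most values had no call to lose. The count of 2 called genes at 541 mg/kg became 1, Gsta3, with arrays centred on their median, with only the groups compared and with the replicate block, and 4 with array quality weights. It became 3, with Gstt1 added, with quantile normalization, with dim probe sets filtered out, with the prior variance as a trend and with the mean over probe sets. At 54.1 mg/kg 1 gene, Gsta3, was called with only the groups compared. The trend count of 5 became 3 with centred arrays and 6 with the prior variance as a trend. It became 7 with quantile normalization and 8 with dim probe sets filtered out. The count of 1 for any difference became 2 with the prior variance as a trend. Leaving out 1 sample gave 0 to 4 genes at 541 mg/kg, 3 to 6 for the trend and 0 to 2 for any difference. Replicate numbers did not pair the samples (correlations of deviations from -0.21 to 0.15), and the replicate block changed no other count.

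Signs turned in the following cases. Gss at 541 mg/kg was -0.0034 with centred arrays. Against the 3 lowest doses as reference, the 541 mg/kg difference was -0.0487 for Gss, -0.0597 for Hpgds, -0.18 for Gpx2 and -0.0075 for Gpx3, the 54.1 mg/kg difference of Gstm3 was 0.0224, and Mgst2 at 541 mg/kg (0.26) was not called while Gstk1 (0.19) was. With the dimmest probe set, Gstt2 was -0.0862 at 541 mg/kg and -0.0076 per step, and Glrx2 -0.21. With the mean over probe sets Glrx2 was -0.0856. Without single samples, Gss ran from -0.043 to 0.0534, Oplah from -0.0322 to 0.147 and Gpx4 from -0.045 to 1.59e-05 at 541 mg/kg, Gstm3 from -0.0835 to 0.0625 at 54.1 mg/kg, and Mgst2 from -0.00181 to 0.0767 between the 2 highest doses. The causes were not tested.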
